A study of Homo sapiens with 8 samples.

Results

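Genes used as surface or secreted markers of bile duct cells and of bipotent liver progenitor cells were followed in HepG2 cells treated with EZH1/2 inhibitors. The set of 8 genes (EPCAM, SPP1, CD24, PROM1, AQP1, MUC1, CFTR and CD44) was taken by gene symbol, and 7 of them were found among the 25603 genes of the deposited table, while CFTR was not analysed here. HepG2 is an established human hepatocarcinoma cell line, so all libraries come from 1 tumour line and not from hepatocytes of the liver. In the EZHi group, 4 libraries were made from cells given UNC1999 and valemetostat tosylate for 4 days, each inhibitor at 1 µM. In the vehicle group, 4 libraries were made from cells given DMSO for the same time (0.2% per the labels). Both groups were grown in the same medium, which held serum, insulin and dexamethasone. The comparison addresses which of these markers change when both enzymes of polycomb repressive complex 2 (PRC2) are inhibited. The paper describes the 4 replicates of each group as independent biological replicates of this line.

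PRC2 silences genes by methylating lysine 27 of histone H3, a mark placed by its catalytic subunits EZH1 or EZH2 and often found at CpG-rich promoters of genes that a cell type keeps off. In the liver, cholangiocytes lining the bile ducts carry surface proteins that hepatocytes lack or hold at low level. EPCAM is a homophilic adhesion molecule, CD24 a small heavily glycosylated protein anchored to the membrane by a lipid, PROM1 (CD133) a pentaspan glycoprotein of membrane protrusions, and CD44 the receptor for hyaluronan. AQP1 is a water channel and CFTR a chloride channel of ductal secretion, MUC1 is a membrane-bound mucin, and SPP1 encodes osteopontin, a secreted phosphoprotein that binds integrins and CD44. Several of them also mark hepatic progenitor cells and tumour cells, so none identifies a cholangiocyte on its own.

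The stretches upstream of annotated starts of CD24, PROM1 and SPP1 are shown because these are the 3 markers with a change in at least one of the fits below, and because they differ in CpG content. They come from RefSeq (GRCh38.p14), run 5′ to 3′ on the strand of the gene and hold only bases outside GENCODE exons of that gene, with CpG dinucleotides in capitals. The CD24 stretch is chr6:106975628-106975877 (minus strand), the PROM1 stretch chr4:16083733-16083977 (minus strand, before the second of its 4 annotated starts), and the SPP1 stretch chr4:87975464-87975666 (plus strand).
CD24: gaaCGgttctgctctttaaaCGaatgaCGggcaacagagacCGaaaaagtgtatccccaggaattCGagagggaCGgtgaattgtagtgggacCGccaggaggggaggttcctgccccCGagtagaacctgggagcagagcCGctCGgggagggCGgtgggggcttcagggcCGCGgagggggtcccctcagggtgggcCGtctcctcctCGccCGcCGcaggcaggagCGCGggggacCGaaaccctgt
PROM1: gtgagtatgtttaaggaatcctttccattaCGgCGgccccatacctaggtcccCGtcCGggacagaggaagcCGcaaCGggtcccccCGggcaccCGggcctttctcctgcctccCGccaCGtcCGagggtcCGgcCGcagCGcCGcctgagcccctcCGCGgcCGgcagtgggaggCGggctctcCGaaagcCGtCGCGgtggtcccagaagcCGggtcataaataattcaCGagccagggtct
SPP1: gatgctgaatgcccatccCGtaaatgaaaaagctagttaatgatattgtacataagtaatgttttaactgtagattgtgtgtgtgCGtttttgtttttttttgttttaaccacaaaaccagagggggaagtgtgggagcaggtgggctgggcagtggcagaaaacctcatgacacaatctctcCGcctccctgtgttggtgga
The CD24 stretch holds 20 CpG in 250 bases and the PROM1 stretch 25 in 245 bases, whereas the SPP1 stretch holds 3 in 203 bases. Over 35116 RefSeq promoter windows of 250 bases, the median was 11 CpG (quartiles 3 and 23). The other starts of CD24 held 27 and 17 CpG per 250 bases, and those of PROM1 held 13, 17 and 5. Among the other markers, the windows held 15 CpG for CD44, 11 and 12 for the 2 starts of MUC1, 11 for CFTR and 8 for AQP1. Of the 8 genes, 7 had an entry in this promoter table, the exception being EPCAM. Searched on both strands, TATAAA was found upstream of AQP1 and MUC1 (10.7% of all windows hold it), and CCAAT upstream of 1 start each of CD24 and PROM1 and upstream of CFTR (32.0% of all windows). Neither H3K27me3 nor DNA methylation was measured in these libraries.

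The 7 markers were spread over a wide range of levels, and the treatment changed their balance more than their order. The read depth behind the values is unknown. Levels are given as estimated FPKM, normalized reads scaled to the length of the mean transcript and to the summed reads of a library, so that genes can be compared with each other. In vehicle cells SPP1 stood highest at 263 ± 38.1 FPKM (SD, n = 4), followed by EPCAM at 181 ± 7.94, CD24 at 20.8 ± 2.09, PROM1 at 1.29 ± 0.25, MUC1 at 0.33, CD44 at 0.062 and AQP1 at 0.022. In EZHi cells the order was the same, with SPP1 at 333 ± 39.1 FPKM, EPCAM at 176 ± 13.5, CD24 at 108 ± 10.7 and PROM1 at 3.68 ± 0.25. Ranges of neighbours in that order did not overlap in either group, and each pair kept its order in 4 of 4 libraries. For the lowest genes, CD44 and AQP1, the authors' transform shrinks values toward the mean of the gene, so their lack of overlap says little. HepG2 cells given vehicle alone already held EPCAM and osteopontin transcripts at high level, whereas CD44 and AQP1 were below the level at which genes were tested. The distance between EPCAM and CD24 was 3.13 ± 0.19 on the log2 scale in vehicle cells (8.74-fold) and 0.70 ± 0.19 in EZHi cells (1.63-fold). Much of the CD24 exon sequence occurs elsewhere in the genome (below), so its level relative to other genes, and its share of a sum, are uncertain. The summed level of the 7 genes was 466 ± 40.6 FPKM in vehicle and 621 ± 45.0 FPKM in EZHi libraries, of which CD24 made up 4.50% and 17.5%, EPCAM 39.0% and 28.4%, and SPP1 56.1% and 53.5%.

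**Figure D1:**
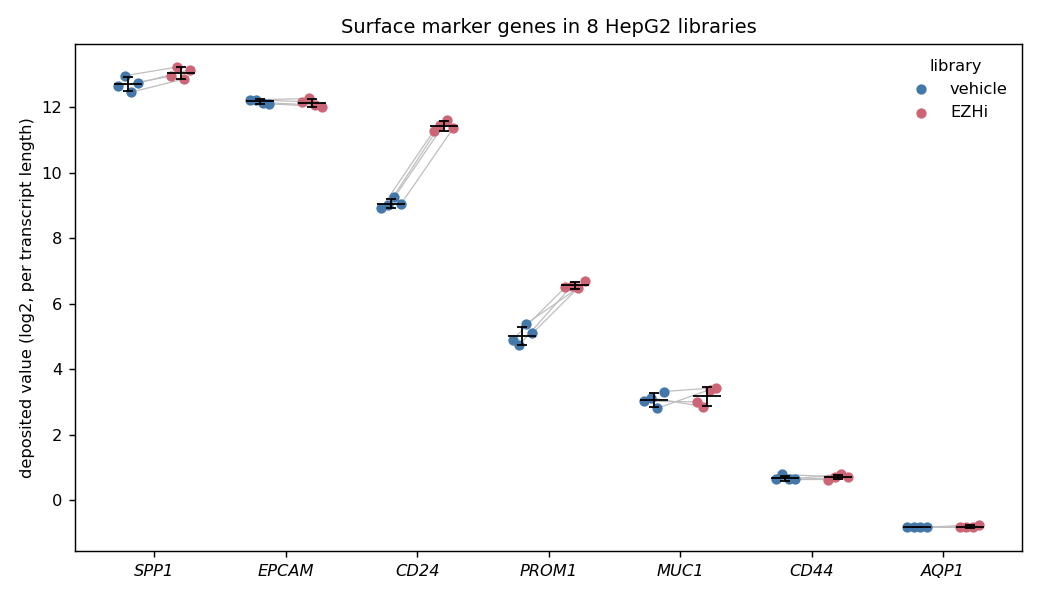
Deposited values (log2, corrected for mean transcript length) of the 7 marker genes in 4 vehicle (blue) and 4 EZHi (red) libraries, with bars for the mean and SD and grey lines joining libraries of the same replicate number. The groups of CD24 and PROM1 lie apart, whereas those of the other 5 genes overlap.

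Across the 20153 genes with a mean level of at least 0.1 estimated FPKM, a limma fit with Benjamini-Hochberg adjustment called 8.85% of genes higher and 4.27% lower in EZHi cells (adjusted p under 0.05), or 1784 and 860 genes, and 2504 and 326 genes when libraries were centred on genes of at least 10 FPKM. Of the 8 markers, 5 passed that filter, of which 2 were called higher (CD24 and PROM1), 0 lower and 3 not called (SPP1, EPCAM and MUC1). At an unadjusted p under 0.05 the counts were 3 higher and 0 lower. CD44 and AQP1 were below the filter. The median log2 fold change of the 5 tested markers was 0.35, against -0.0077 over all tested genes. Groups did not overlap, with EZHi higher, for 2 of the markers, which compares with 10.7% of all tested genes (7.93% had all EZHi values below all vehicle values). With the replicate number as a block, the fit called 14.9% of genes higher and 15.1% lower, and the markers called higher were 3, SPP1 being the addition.

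CD24 showed the largest change of the set. Its normalized values (log2) were 8.91, 9.0, 9.25 and 9.04 in vehicle replicates 1 to 4 and 11.28, 11.47, 11.61 and 11.37 in EZHi replicates 1 to 4. Every EZHi library lay more than 2 log2 units above every vehicle library, and the spread within each group was 0.14 (SD). The log2 fold change was 2.38 (SE 0.094, 95% confidence interval 2.17 to 2.59), or 5.21-fold, with an adjusted p of 1.64e-06 in the limma test. An exact two-sided permutation test of the group means gave p = 0.0286, the smallest value that 4 against 4 libraries allow. CD24 was higher in 4 of 4 replicate pairs, by 2.33 to 2.47. In such bulk RNA, more cells holding a transcript and more transcript per cell cannot be told apart. Only 0.278% of tested genes had a larger rise, and the change stayed between 2.32 and 2.48 and was called in all 20 alternative fits.

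The CD24 gene (ENSG00000272398, chr6:106969831-106975627, minus strand, GRCh38) has near-identical processed copies, which makes its read assignment uncertain. Of its 2946 exon windows of 31 bases, 59.0% were found elsewhere in the genome, against 6.35% for SPP1, 3.50% for PROM1, 3.10% for EPCAM, 0.16% for CD44 and 0 for MUC1 and AQP1. The authors counted only reads above a minimal alignment quality, so reads from the shared part may have been dropped. The windows of 31 bases are shorter than the paired reads of 150 bp, so the share of ambiguous reads may be below 59.0%. The pseudogene CD24P4 was listed in the table and also passed the test, with a log2 fold change of 0.71 (adjusted p = 0.0212, limma), a call lost with quantile normalization and when EZHi replicate 2 or EZHi replicate 4 was left out (highest adjusted p over its alternatives 0.0738). The part of shared reads in either value was not tested.

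PROM1 (ENSG00000007062, chr4:15963076-16084378, minus strand) was the second marker called higher. Its normalized values (log2) were 4.90, 4.73, 5.38 and 5.09 in vehicle replicates 1 to 4 and 6.50, 6.54, 6.49 and 6.69 in EZHi replicates 1 to 4. The 4 EZHi libraries (SD 0.09) lay above every vehicle library, of which replicate 3 was the highest. The log2 fold change was 1.53 (SE 0.14, 95% confidence interval 1.22 to 1.85), or 2.89-fold, with an adjusted p of 9.31e-05 (limma), and the exact permutation p was 0.0286. The differences within replicate pairs ran from 1.11 to 1.81, and 1.29% of tested genes had a larger rise. It was called in all 20 alternatives, with a range from 1.23 to 1.67. PROM1 shares 166 exon bases on the same strand with FGFBP2, or 2.23% of its exon bases, and FGFBP2 was itself called higher by 0.70 (adjusted p = 0.00146, limma). On the FPKM scale PROM1 remained a low transcript in EZHi cells, 29.3-fold below CD24, whose own level is uncertain (above).

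SPP1 (ENSG00000118785, chr4:87975667-87983532, plus strand), the most abundant of the set, depended on the fit. Its normalized values (log2) were 12.65, 12.96, 12.46 and 12.74 in vehicle replicates 1 to 4 and 12.95, 13.23, 12.86 and 13.15 in EZHi replicates 1 to 4. The groups overlapped, but replicate 3 was the lowest and replicate 2 the highest in both. The log2 fold change was 0.35 (95% confidence interval 0.08 to 0.61), or 1.27-fold, with an adjusted p of 0.0891 (limma), and the exact permutation p was 0.0857. Within replicate pairs SPP1 was higher in 4 of 4, by 0.27 to 0.42, and the blocked fit called it (SE 0.046, adjusted p = 0.000679, limma). That call remained with any 1 pair left out (0.32 to 0.37). Without the block, SPP1 was called when vehicle replicate 2 was left out (0.43, adjusted p = 0.0365, limma) and when libraries were centred on genes of at least 10 FPKM (0.44, adjusted p = 0.0283). An antisense gene overlaps 2.70% of its exon bases, and counting did not use strand.

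EPCAM (ENSG00000119888, chr2:47345158-47387601, plus strand) was not called in any fit. Its normalized values (log2) were 12.23, 12.23, 12.14 and 12.11 in vehicle replicates 1 to 4 and 12.17, 12.27, 12.07 and 12.02 in EZHi replicates 1 to 4. The groups overlapped throughout, and 1 of 4 pairs was higher in EZHi. The log2 difference was -0.04 with a 95% confidence interval from -0.20 to 0.11, or 0.869- to 1.08-fold, and the adjusted p was 0.757 (limma). Its sign turned under other scalings, to 0.070 with quantile normalization and 0.051 with centring on genes of at least 10 FPKM, without a call in either.

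MUC1 (ENSG00000185499, chr1:155185824-155192916, minus strand), the membrane-bound mucin, was at low level. Its normalized values (log2) were 3.02, 3.12, 2.80 and 3.32 in vehicle replicates 1 to 4 and 3.0, 2.86, 3.38 and 3.43 in EZHi replicates 1 to 4. The groups overlapped, and 2 of 4 pairs were higher in EZHi. The log2 difference was 0.10 with a 95% confidence interval from -0.25 to 0.45 (adjusted p = 0.751, limma), and it turned to -0.087 with quantile normalization. Changes of up to about 1.37-fold upward are therefore within the interval.

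CD44 and AQP1 were below the filter, so the main and blocked fits did not test them. An exact two-sided permutation test of the group means gave p = 0.486 for CD44 and p = 0.771 for AQP1. Without a filter on level, 2 markers were called by limma, CD24 and PROM1. The normalized values (log2) of CD44 (ENSG00000026508, chr11:35138882-35232402, plus strand) were 0.63, 0.79, 0.63 and 0.63 in vehicle and 0.63, 0.71, 0.80 and 0.71 in EZHi libraries, a range of 0.17. Those of AQP1 (ENSG00000240583, chr7:30911853-30925517, plus strand) were -0.83 in all vehicle libraries and -0.83, -0.83, -0.83 and -0.75 in EZHi libraries. Of genes with a transcript length within 20% of their own, 13.3% of 5264 had a lower level than CD44 and 3.38% of 6221 a lower level than AQP1. The regularized log shrinks such genes toward their mean, so a change of either would be understated in these values.

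**Figure D2:**
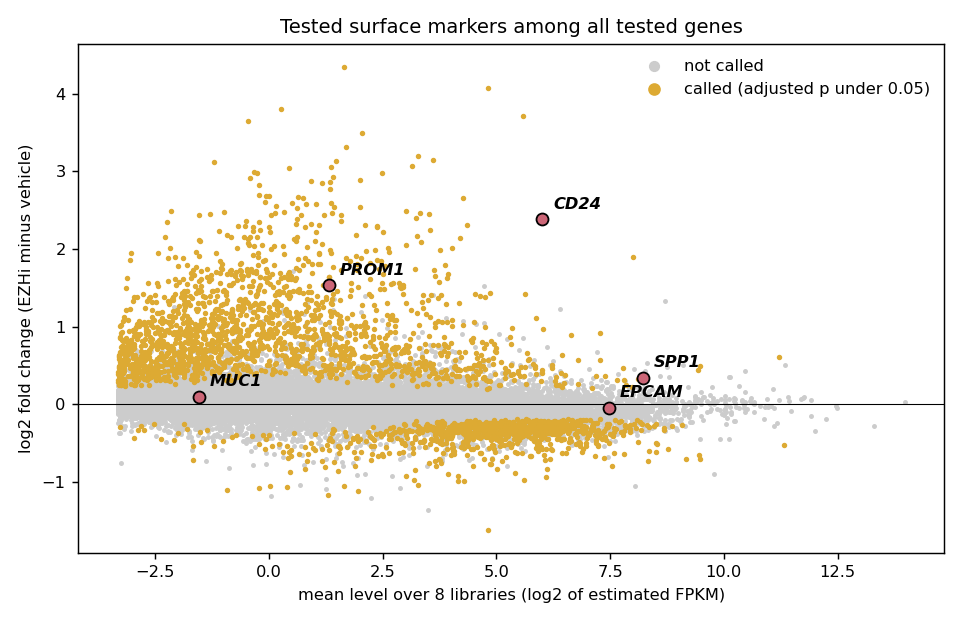
Log2 fold change (EZHi minus vehicle) against mean level (log2 of estimated FPKM) for the 20153 tested genes, with called genes in yellow and the 5 tested markers in red. CD24 lies at 2.38, PROM1 lies at 1.53, and SPP1, EPCAM and MUC1 lie among genes not called.

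The genes whose centred values over the 8 libraries lay nearest to CD24 were SYNGR1, a synaptic vesicle protein (mean absolute difference 0.082 on the log2 scale, log2 fold change 2.31), SH3RF3 (0.099, log2 fold change 2.49) and SOHLH1, a germ cell transcription factor (0.12, log2 fold change 2.44). Those nearest to PROM1 were OSBP2, an oxysterol-binding protein (0.11, log2 fold change 1.51), LEFTY2, a secreted inhibitor of Nodal signalling (0.11, log2 fold change 1.52), and the protocadherin PCDHB7 (0.11, log2 fold change 1.52). None is a marker of the bile duct in the lists used here. All 6 were called higher, and with a single contrast over 8 libraries any gene of like fold change and spread would lie as near. SH3RF3 passed the filter on level only through its EZHi libraries (log2 mean 0.80 in vehicle, 3.29 in EZHi).

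Other markers of the biliary lineage moved in part. Of 24 listed genes, 17 were tested, 3 were called higher and 0 lower (over all tested genes, 8.85% and 4.27%). The median log2 fold change of the list was 0.17, and at an unadjusted p under 0.05 the counts were 4 and 0. AGR2, a protein disulfide isomerase of secretory epithelia, went from 14.9 to 39.2 FPKM (1.38, adjusted p = 9.97e-05, limma). BICC1, an RNA-binding protein linked to cystic kidney disease, rose by 1.15 (adjusted p = 0.000152), and TFF3, a trefoil peptide of mucous surfaces, by 0.91 (adjusted p = 0.00574). The cytokeratin KRT19 was already at 396 FPKM in vehicle and at 433 FPKM in EZHi cells (0.16, adjusted p = 0.738), and the annexin ANXA4 differed by 0.21 (adjusted p = 0.391). The blocked fit called 7 higher and 2 lower, among them ANXA4 (adjusted p = 0.00577), against 14.9% and 15.1% over all tested genes.

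Among other surface proteins of progenitor cells, 2 of 14 tested genes were called higher and 1 lower (over all tested genes, 8.85% and 4.27%). The median of the list was 0.064, and at an unadjusted p under 0.05 the counts were 3 higher and 3 lower. CD47, the signal that restrains phagocytosis, rose by 0.85 (adjusted p = 0.00167, limma), and NT5E (CD73), the ectoenzyme that makes adenosine, by 0.63 (adjusted p = 0.0112). ICAM1, an adhesion receptor for leukocytes, fell by 0.51 on the log2 scale from 84.6 to 59.8 FPKM (adjusted p = 0.00138). The aminopeptidase ANPEP (0.11, adjusted p = 0.496) and the Notch-related DLK1 (0.35, adjusted p = 0.266) were not called. DLK1 was called with the block (adjusted p = 0.0103), and that fit called 5 higher and 3 lower (over all tested genes, 14.9% and 15.1%).

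Genes of ductal secretion move water, chloride and bicarbonate in bile. Those tested had a median of 0.15, and at an unadjusted p under 0.05 the counts were 3 higher and 1 lower. Against 8.85% and 4.27% over all tested genes, 3 of 13 tested were called higher and 0 lower. They were the carbonic anhydrase CA2, at 0.611 FPKM in vehicle and 1.23 FPKM in EZHi cells (1.03, adjusted p = 0.00847, limma), the polycystin channel PKD2 (0.84, adjusted p = 0.00504) and the sodium-proton exchanger SLC9A3 (0.81, adjusted p = 0.0119). The scaffold NHERF1 (-0.10, adjusted p = 0.617) and the anion exchanger SLC26A6 (-0.50, adjusted p = 0.116) were not called, although SLC26A6 was lower in every pair and was called lower with the block (adjusted p = 0.00108). With the block the counts were 4 higher and 1 lower (over all tested genes, 14.9% and 15.1%).

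AQP1 is 1 of a family in which other members were measurable. Of 7 tested aquaporins 3 were called higher and 0 lower, against 8.85% and 4.27% over all tested genes. The aquaporin median was 0.094, and at an unadjusted p under 0.05 the counts were 3 and 1. AQP9, the glycerol and urea channel of hepatocytes, went from 0.121 to 0.584 FPKM (2.10, adjusted p = 0.00247, limma), AQP7, a glycerol channel, rose by 0.77 (adjusted p = 0.00539) and AQP6 by 0.63 (adjusted p = 0.0246). The AQP6 call was lost in 5 of 8 fits with 1 library left out (vehicle replicates 2 and 4, EZHi replicates 1, 3 and 4) and with quantile normalization, with an adjusted p of up to 0.109 over its alternatives. AQP11 and AQP3 differed by -0.067 and -0.14 (adjusted p = 0.732 and 0.727).

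Of the mucins other than MUC1, 9 of 18 listed genes were in the table and 3 were tested. All 3 were called higher, against 8.85% over all tested genes. MUC13, a membrane-bound mucin, went from 1.46 to 7.25 FPKM (2.31, adjusted p = 8.25e-06, limma). MUC3A, also membrane-bound, rose by 1.59 (adjusted p = 0.000219) but stayed at 0.326 FPKM. MUC5B, a gel-forming mucin, had the widest spread, with 4.45 FPKM in vehicle and 14.2 FPKM in EZHi cells (1.74, adjusted p = 0.039). Its call was lost in 6 of 8 fits with 1 library left out (vehicle replicates 1, 2 and 4, EZHi replicates 1, 3 and 4, adjusted p up to 0.0917) and without a filter on level (adjusted p = 0.0600), and it was higher in 4 of 4 pairs. The vehicle means of all 3 were above the filter of 0.1 FPKM, that of MUC3A only just (0.107 FPKM). The count of 3 is a description.

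Receptors and enzymes of the osteopontin and hyaluronan system, to which SPP1 belongs as a ligand and CD44 as a receptor, had called genes in both directions. Of 18 tested genes 2 were called higher and 2 lower (over all tested genes, 8.85% and 4.27%). With the block the counts were 4 and 5 (over all tested genes, 14.9% and 15.1%), and the median of the list was -0.050. The integrin chain ITGA5 rose by 1.61 from 0.683 to 2.13 FPKM (adjusted p = 0.000512, limma) and ITGB3 by 0.64 (adjusted p = 0.0114). ITGB5, a much more abundant osteopontin receptor chain, fell by 0.69 on the log2 scale from 204 to 127 FPKM (adjusted p = 0.000152). The hyaluronidase CEMIP2 differed by -0.58 (adjusted p = 0.0231), a call lost without vehicle replicate 2 or 4 or EZHi replicate 1, 3 or 4 and with quantile normalization (adjusted p up to 0.0689). ITGB1 (-0.11) and HYAL1 (0.18) were not called (adjusted p = 0.383 and 0.104), and HYAL1 was called higher with the block (adjusted p = 0.017). None of the 4 bone phosphoprotein relatives of osteopontin could be tested, 1 being listed in the table. Of 10 tested partners of EPCAM, CD24 and PROM1, namely proteases, protease inhibitors and receptors, limma called 0 (at an unadjusted p under 0.05, 1 higher and 1 lower), and the blocked fit called 1 higher and 2 lower. The protease ADAM10, which cleaves surface proteins such as CD44, differed by -0.17 (adjusted p = 0.241, limma) and was called lower with the block (adjusted p = 0.0143).

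**Figure D3:**
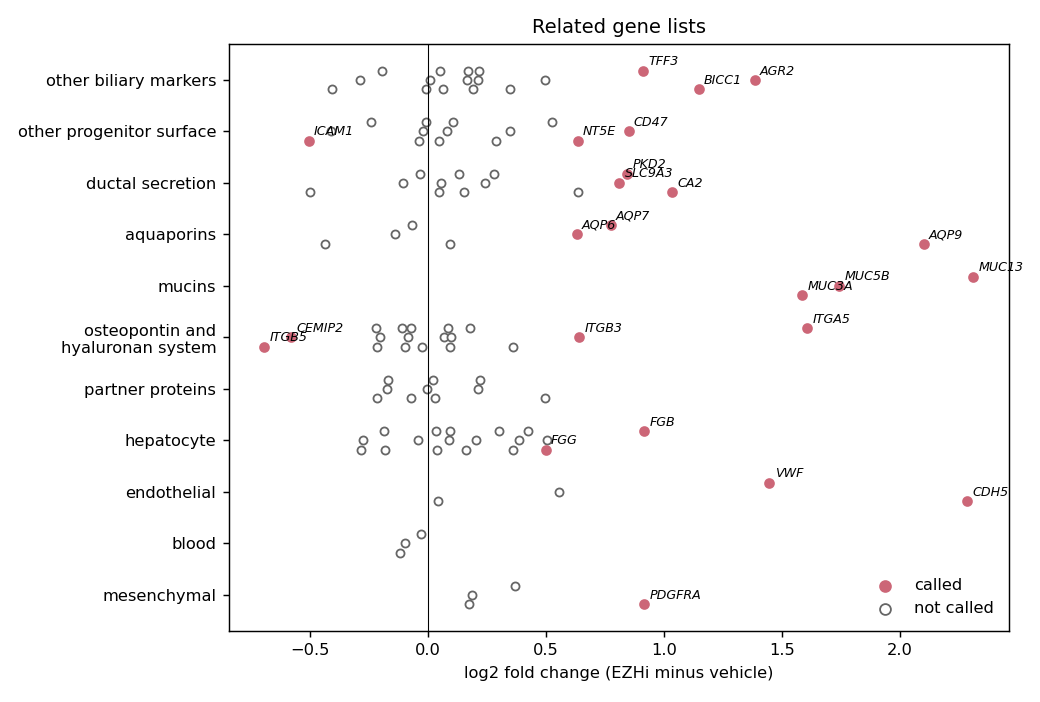
Log2 fold change (EZHi minus vehicle) of the tested genes of each related list, with called genes filled and named. The 3 tested mucins other than MUC1 lie at 1.59 to 2.31, whereas most genes of the other lists lie near 0.

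Hepatocyte genes were abundant in both groups. All 18 listed hepatocyte genes were tested, 2 were called higher and 0 lower (at an unadjusted p under 0.05, 3 and 0, and with the block 7 and 2), with a median of 0.13. The shares over all tested genes were 8.85% and 4.27%, and with the block 14.9% and 15.1%. FGB rose by 0.92 (adjusted p = 0.00167, limma) and FGG by 0.50 (adjusted p = 0.0342). The FGG call was lost in 6 of 8 fits with 1 library left out, all but those without vehicle replicate 3 or EZHi replicate 1 (adjusted p up to 0.102). ALB (-0.28, adjusted p = 0.638) and APOA2 (-0.19, adjusted p = 0.328) were not called, and ALB was called lower with the block (adjusted p = 0.0314). Of genes that mark other cell types, 2 of 4 tested endothelial genes were called higher, CDH5 (2.28, adjusted p = 0.00411) and VWF (1.45, adjusted p = 0.00537), whereas PECAM1 and STAB1 were not (0.04 and 0.56). STAB1 was called higher with the block (adjusted p = 0.00329), which called 3 of the 4. The endothelial genes summed to between 3.70 and 4.63 FPKM in vehicle and between 5.04 and 10.2 FPKM in EZHi libraries. Of 3 tested blood cell genes 0 were called by either fit, also at an unadjusted p under 0.05, with LYZ, at 1471 FPKM in vehicle cells, differing by -0.096 and CD14 by -0.12. Of 4 tested mesenchymal genes PDGFRA was called (0.92, adjusted p = 0.00503), and ACTA2 (0.19) and PDGFRB (0.17) were not, and the summed level ran from 33.0 to 42.3 FPKM in vehicle and from 42.2 to 47.2 FPKM in EZHi libraries. The part of these genes in the marker changes was not tested.

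The genes around the markers were compared in the same fit. Over all tested genes, it called 8.85% higher and 4.27% lower, and the blocked fit 14.9% and 15.1%. Within 1000 kb of the start of CD24, 13 genes were tested, of which 0 were called higher and 1 lower (at an unadjusted p under 0.05, 1 and 2), and the blocked fit called 2 higher and 4 lower. The gene called without the block, QRSL1, differed by -0.30 (adjusted p = 0.0353, limma), a call lost in 7 of 8 fits with 1 library left out, all but that without EZHi replicate 2, and with quantile or centred scaling (adjusted p up to 0.119). Near PROM1, 2 of 6 tested genes were called higher, FGFBP2 (above) and CC2D2A, a gene of the ciliary transition zone (0.63, adjusted p = 0.00225). With the block the counts there were 2 higher and 1 lower. Near SPP1, 4 of 11 were called higher. They were PKD2, whose start lies 32.0 kb downstream, HERC5 (1.59, adjusted p = 1.88e-05) and HERC6 (0.80, adjusted p = 0.00248), which encode E3 ligases, and NAP1L5 (0.41, adjusted p = 0.0247, lost without vehicle replicate 1 or 4 or EZHi replicate 1, 2 or 4 and with quantile normalization, with an adjusted p of up to 0.219).

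Near EPCAM, 2 of 24 tested genes were called higher and 1 lower (TTC7A, -0.62, adjusted p = 0.000842, limma). With the block the counts there were 2 and 2. The shares over all tested genes were 8.85% and 4.27%, and with the block 14.9% and 15.1%. The divergent long non-coding RNA EPCAM-DT, which starts 0.084 kb from EPCAM on the opposite strand, differed by 0.46 (adjusted p = 0.0367, with block 0.00195), while EPCAM itself was not called. The EPCAM-DT call was lost in 6 of 8 fits with 1 library left out (vehicle replicates 1, 2 and 4, EZHi replicates 1, 3 and 4) and with quantile normalization (adjusted p up to 0.103). LINC01118 differed by 0.25 (adjusted p = 0.0395), a call lost without any 1 library other than vehicle replicate 3, with quantile normalization, with a pseudocount of 0.5 and without the trended prior (adjusted p up to 0.383). Around MUC1, 4 of 63 tested genes were called higher and 2 lower (6 and 11 with the block). For CD44 the counts were 3 and 1 of 10 (4 and 1 with the block). For AQP1 they were 0 and 3 of 16 (1 and 3 at an unadjusted p under 0.05).

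**Figure D4:**
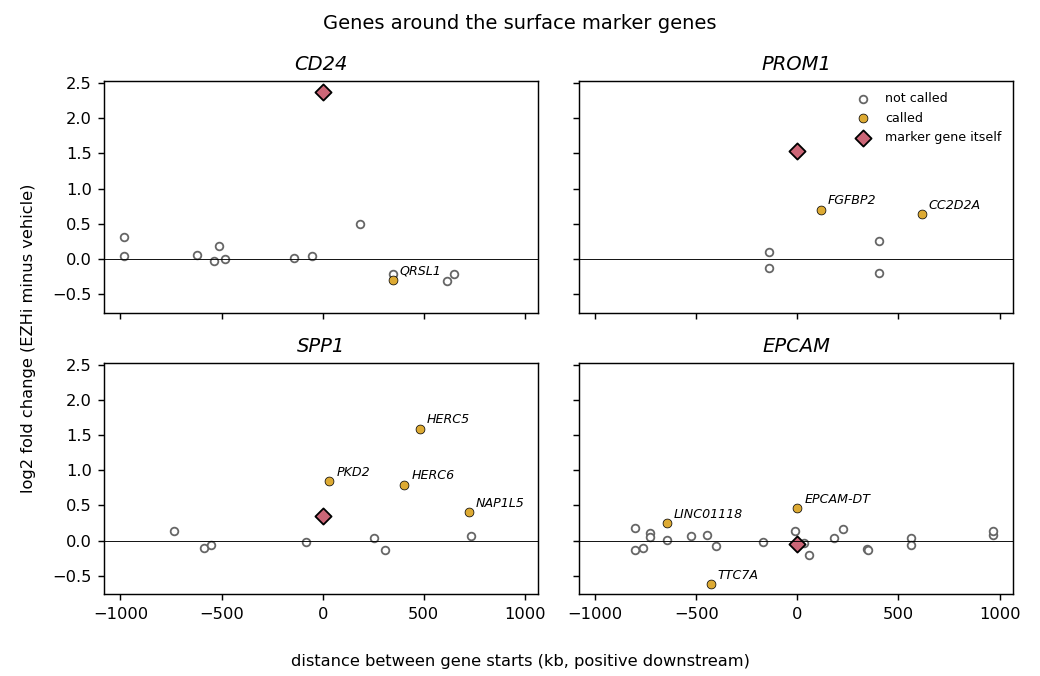
Log2 fold change (EZHi minus vehicle) of tested genes within 1000 kb of the start of CD24, PROM1, SPP1 and EPCAM against the distance between gene starts (kb), with the marker itself as a red diamond. No gene around CD24 is called higher, whereas called genes (yellow) lie downstream of SPP1 and PROM1.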

How the data were processed

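RNA was sequenced as paired reads of 150 bp from HepG2 cells, with 4 vehicle and 4 EZHi libraries grouped by sample title. The deposited table is named for FPKM but holds log2 values. The authors aligned reads to hg38 with HISAT2 (2.2.1 per the labels), summed them over the exons of each gene with HTSeq (0.9.1), ignoring strand, took the regularized log of DESeq2 (1.40.2) and corrected for mean transcript length. The regularized log understates changes of low genes. Read depth is unknown. With the length correction undone, the values of a library summed to between 24.4 and 27.3 megareads on the normalized scale, and the mean of these sums (25.6) set the scale of the estimated FPKM.

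Genes with a mean of at least 0.1 estimated FPKM (20153) were tested with limma 3.58.1 (trended prior, R 4.3.3) on group alone, with Benjamini-Hochberg adjustment over all of them and a threshold of 0.05. The pipeline was tested on simulated data. Coordinates are from GENCODE release 44. Single values were also compared by exact two-sided permutation tests over 70 assignments. Tables and plots were made in Python 3.11.15 (numpy 2.4.6, pandas 2.3.3, matplotlib 3.10.9).

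The deviations of same-numbered libraries from their group means correlated at 0.31, 0.56, 0.63 and 0.22 for replicates 1 to 4. Those of differently numbered libraries correlated at -0.58 to 0.20, the highest being vehicle replicate 1 with EZHi replicate 2. The numbers were taken to pair the libraries, which is less clear for replicate 4. The blocked fit is given where it changed the call of a gene named here. The 8 markers and the related lists were chosen with earlier results of these data known. The genes named were all markers found, up to 4 called genes of each list with the largest change and its 2 uncalled genes of highest level, and the 3 genes nearest in pattern to each called marker. A gene that this rule names is not reported here. The called neighbours, CD24P4 and the blocked fits with 1 pair left out were added after values had been seen. Alternatives were the replicate block, a filter of 1 FPKM or none, a pseudocount of 0.5, quantile, median-of-ratios and centred scaling, no trended prior and leaving out each library.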

Additional observations from a re-analysis of the deposited data

Results flagged for a closer look

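AQP1 was higher in EZHi replicate 4 (-0.75, log2) than in the other 3 EZHi libraries (-0.83 each), by a gap of 0.979 of the range of the group. CD44 was higher in vehicle replicate 2 (0.79, log2) than in the other 3 vehicle libraries (0.63 each), by 0.982 of the range. Both genes were below the filter and so in neither the main nor the blocked fit. Of 14 groups of values examined (7 genes in 2 groups), 2 had such a value, and chance alone gives about 1 in 20, or 0.7 of 14. In both groups the other 3 values were nearly tied, so that rate may not hold for such low genes.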

How the results depend on the processing

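CD24 and PROM1 kept their direction and call in all 20 alternatives. The replicate block called 6051 genes (3003 higher, 3048 lower) against 2644 (1784 and 860) without it, and SPP1 with them, and changed no call of the other 4 tested markers. A filter of 1 FPKM called 1579 genes, 780 of them higher, with fewer genes tested. Centring on genes of at least 10 FPKM called 2504 genes higher and 326 lower, and moved the median of all genes by 0.095 (log2). With 1 library left out, between 1811 and 2571 genes were called, 1422 to 1711 of them higher and 389 to 860 lower, and the change of SPP1 ran from 0.27 to 0.43, that of EPCAM from -0.089 to -0.0068 and that of MUC1 from 0.011 to 0.20. EPCAM turned to 0.070 (quantile) and 0.051 (centred), and MUC1 to -0.087 (quantile) and -0.058 (block without pair 3, chosen after seeing the data). Except where a lower number of genes tested or of libraries is named, the cause was not tested. The filter of 1 FPKM leaves MUC1 untested. Unknown depth and the shrinkage of low values limit what can be said of MUC1, CD44 and AQP1.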
